A study of Gossypium hirsutum with 16 samples.

Results

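Of 62297 annotated gene IDs measured in shoot apices of Gossypium hirsutum, upland cotton, 50 were present in every library from plants silenced for GhBRC1 and low or listed at 0 in every control library. They were chosen by their own FPKM (sequenced fragments relative to gene length and library size): at least 1 FPKM in each of 8 silenced libraries, and a highest control value more than 8-fold below the lowest silenced value. The difference between silenced and control libraries is therefore what defines these genes, and it is given below as a description without a test. The rule took no account of strain or of position. It used all 8 silenced values, however, so a gene that was off in a single strain, or in a single silenced library, could not be chosen, and the strain comparison and the variation among silenced libraries are limited by that.

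The libraries, 4 per group, came from the stem tip of seedlings of 2 strains. In the JX silenced group, plants of the strain Jinxian-short branch (JX here), which has short fruiting branches, carried GhBRC1 silenced by VIGS. In the 3798 silenced group the same gene was silenced in strain 3798, a nulliplex-branch cotton. The JX control and 3798 control groups are the same strains labelled control. The labels state neither what the control plants received nor whether each library is its own plant, so the spread between libraries may be technical. Any genetic difference between the plants labelled silenced and control, and any effect of infection as such, cannot be told apart from the loss of GhBRC1 in this design.

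BRC1 (BRANCHED1) encodes a transcription factor of the TCP family, known in Arabidopsis and tomato for holding axillary buds in arrest. Virus-induced gene silencing loads a fragment of a plant gene into a recombinant virus, and the plant's small interfering RNAs then degrade the matching transcript. Upland cotton is an allotetraploid whose A and D subgenomes carry many near-identical gene pairs, and the letter and number in a gene ID name its subgenome and chromosome. The IDs are not paired with gene names in the sources used here (0 of 70422 matched a table of 99454 RefSeq genes), so no function is given for any of them, and GhBRC1 itself was not examined.

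In bulk tissue, more cells of a type that uses a gene and more transcript per cell cannot be told apart. The summed FPKM of the 50 genes was 308 to 533 per silenced library, between 0.0511% and 0.0949% of the library total, against 2.48 to 4.98 per control library. In the controls, 14 to 26 of the 50 were listed above 0 in a library, and between 1.33 and 2.07 FPKM of each control sum came from a single gene, Gh_D04G069700. Whole libraries totalled 552185 to 603167 FPKM, with 9.91% to 12.5% of IDs listed at 0. Absolute depth is unknown, so an FPKM of 0 sets no limit. Earlier results of these data set 3798 control 3, 3798 silenced 4 and JX silenced 4 apart from their groups, and the tests of members and of neighbouring IDs were also run without these 3.

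**Figure D1:**
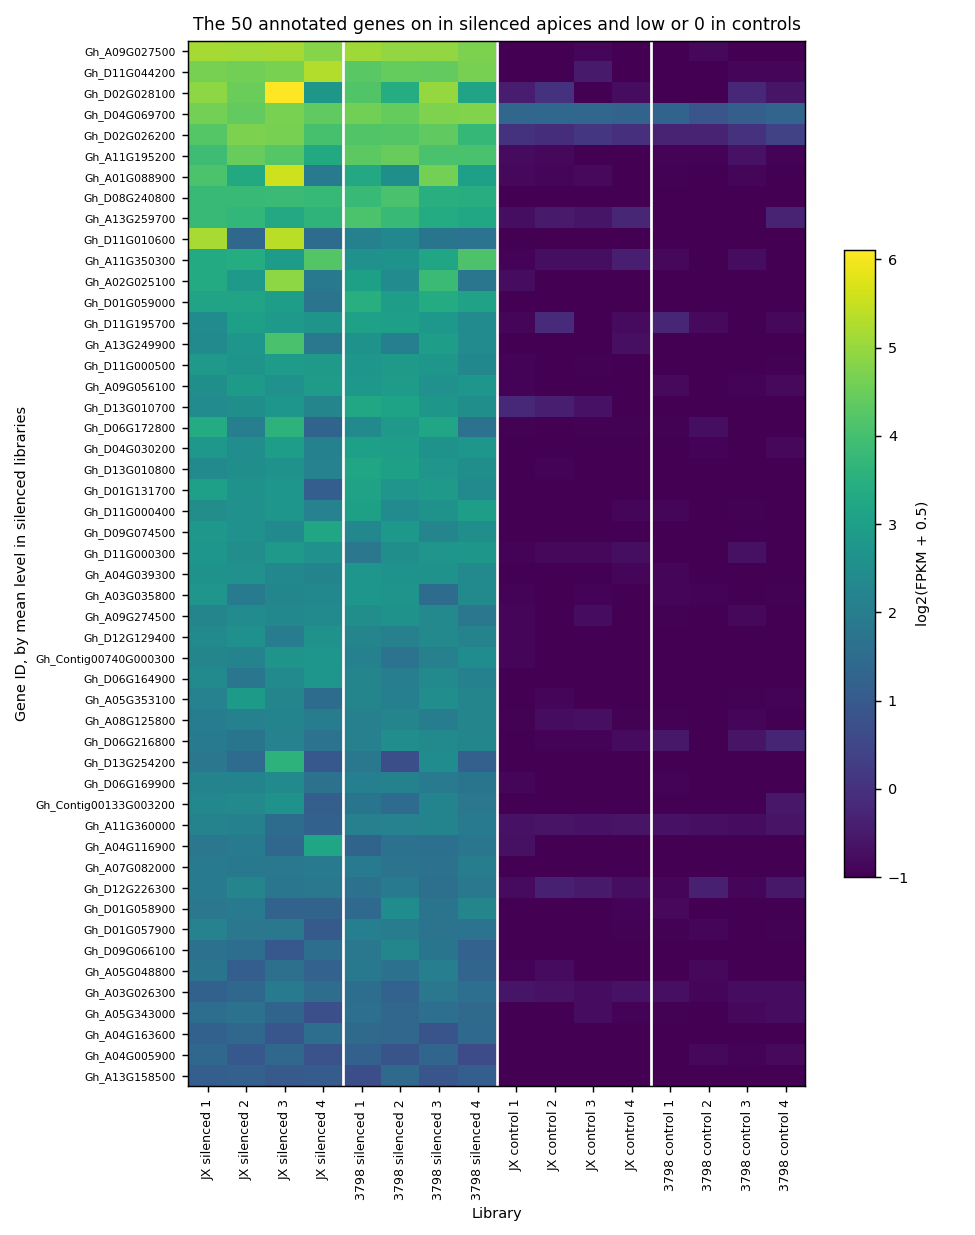
Level of each of the 50 genes, as log2(FPKM + 0.5), in the 16 libraries (columns, silenced groups left of control groups), with genes ordered by their mean in silenced libraries. The silenced columns run from bright to mid tones and the control columns are near the floor of -1, most visibly excepting Gh_D04G069700, with 1.33 to 2.07 FPKM in controls.

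The highest of the 50 was Gh_A09G027500, on chromosome A09. It stood at 35.0, 34.0, 34.9 and 27.9 FPKM in JX silenced libraries and at 33.6, 30.7, 30.7 and 25.5 FPKM in 3798 silenced libraries, against 0, 0, 0.0434 and 0 FPKM in JX controls and 0, 0.0548, 0 and 0 FPKM in 3798 controls. Its lowest silenced value was 464 times its highest control value, and its coefficient of variation over the 8 silenced libraries was 11.1%. Among all annotated IDs, 95.3% had a lower mean in silenced libraries.

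Gh_D11G044200 came next, at 24.4, 23.8, 24.9 and 38.6 FPKM in JX silenced and 19.1, 21.2, 20.4 and 24.8 FPKM in 3798 silenced libraries, with no control above 0.207 FPKM. Gh_A11G195200 stood at 14.3, 21.4, 18.2 and 9.45 FPKM in JX silenced and 19.4, 21.5, 16.2 and 16.2 FPKM in 3798 silenced libraries, with no control above 0.140 FPKM. Gh_A13G259700 stood at 13.5, 12.4, 9.21 and 11.8 FPKM in JX silenced and 16.4, 13.3, 9.81 and 9.12 FPKM in 3798 silenced libraries, against at most 0.357 FPKM in a control. In all 3 the strains overlapped, and JX silenced 4 was the highest library for the first and the lowest for the second.

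Most of the set was expressed at a moderate level. The mean over silenced libraries was 10 FPKM or more for 11 genes, from 5 to 10 FPKM for 15 and under 5 FPKM for 24, with a median of 5.39 FPKM. The 39320 annotated IDs at 1 FPKM or more in all 8 silenced libraries had a median of 7.01 FPKM. The lowest members were Gh_A13G158500, at 1.14 to 2.22 FPKM in silenced libraries, and Gh_A04G005900, at 1.05 to 2.14 FPKM.

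For 11 of the 50 genes the value was listed at 0 in all 8 controls. Of these, Gh_D08G240800, on chromosome D08, had the highest mean over the 8 silenced libraries, 13.1 FPKM, with 13.5, 13.6, 13.9 and 13.1 FPKM in JX silenced libraries and 13.3, 16.1, 10.6 and 10.3 FPKM in 3798 silenced libraries. The others were Gh_D11G010600, Gh_D01G059000, Gh_D01G131700, Gh_D09G074500, Gh_D06G164900, Gh_D13G254200, Gh_A07G082000, Gh_D09G066100, Gh_A04G163600 and Gh_A13G158500. A further 7 genes were above 0 in a single control library, and 32 of the 50 never reached 0.1 FPKM in a control. JX control 1 held the largest number of the genes above 0, 26, where the 7 other controls held 14 to 21.

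Not every member was off in controls. Gh_D04G069700 stood at 24.0, 20.7, 25.0 and 20.0 FPKM in JX silenced libraries and 23.8, 21.1, 26.0 and 26.6 FPKM in 3798 silenced libraries. It was read at 2.07, 2.07, 2.02 and 1.91 FPKM in JX controls and 1.88, 1.33, 1.74 and 1.996 FPKM in 3798 controls, so that the description "on only in silenced apices" goes too far for it. These are graded values, about equal within each label, that met the 8-fold rule. Gh_D02G026200, at 12.9 to 25.4 FPKM in silenced libraries, had 0.307 to 0.817 FPKM in the controls, and Gh_D02G028100 reached 0.524 FPKM in JX control 2. Along with Gh_D04G069700 and Gh_D02G026200, Gh_A11G360000, Gh_D12G226300 and Gh_A03G026300 were above 0 in all 8 controls, these last 3 at no more than 0.275 FPKM.

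The choice has edges on both thresholds. Just inside the 8-fold gap lay Gh_D06G216800, whose lowest silenced value of 2.74 FPKM was 8.18 times its highest control value of 0.334 FPKM, followed by Gh_D12G226300 and Gh_Contig00133G003200, each at 9.34 times. Just outside it lay Gh_A03G074400, Gh_D13G049500 and Gh_D02G107400, at 7.88, 7.74 and 6.68 times. Gh_D13G049500 had 8.05 to 10.2 FPKM in silenced and 0.646 to 1.04 FPKM in control libraries, another graded gene. Just under the minimum of 1 FPKM lay Gh_D09G209000, Gh_D05G324500 and Gh_A07G031800, whose lowest silenced values were 0.926, 0.8996 and 0.830 FPKM and whose control values were all listed at 0. A gap of 4-fold would admit 79 genes, and one of 16-fold would leave 39.

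Single libraries kept other genes out. Leaving out JX silenced 4 added 9 genes, and leaving out JX control 1 added 9 others. Without JX silenced 3 or 3798 control 2 the rule gained 5 genes each, and without any other library fewer. Gh_D09G006900 was at 3.17 FPKM in JX control 1 and listed at 0 in the 7 other controls, with at least 6.10 FPKM in every silenced library. Gh_D13G228300 was at 1.84 FPKM in JX control 1 and at most 0.287 FPKM in the others, against 4.26 FPKM or more in silenced libraries. Among the 9 genes kept out by JX silenced 4, Gh_D05G286400 had 0.0856 FPKM there and a mean of 8.80 FPKM in the 7 other silenced libraries. Why these libraries departed from their groups was not tested.

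Whether the silenced apices of the 2 strains differed in these genes was tested with limma on log2(FPKM + 0.5) over 55040 genes. All 50 genes entered the test, which each of them does through its silenced values. Those values also chose the genes, and a gene much lower in a single strain had less chance to be among them, so the count of members called is given as a description and not as independent of the choice. Of the 50, 0 were called at an adjusted p under 0.05, and 0% of all genes were. Without the 3 libraries set apart, 0 of the 50 were called. At an unadjusted p under 0.05 there were 5 of the 50, against 7.89% of all genes tested. No other tool was run.

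The ratio of the JX silenced mean to the 3798 silenced mean had a median log2 of 0.013 over the 50 genes, against 0.022 over the 39320 annotated IDs on in all silenced libraries. It was above 0 for 27 genes and below 0 for 23. In 0 of the 50 did the 4 JX silenced and the 4 3798 silenced values fail to overlap, where 4.75% of the 39320 IDs did not overlap. The 8-fold gap below the lowest silenced value was asked of the 50 and not of the 39320 IDs, so nothing is read from that difference. The precision was modest: the 95% interval of the log2 difference reached a median of 0.38 to either side, and for 43 of 50 genes it lay within a 2-fold change in either direction.

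The smallest p among the 50 belonged to Gh_D13G010800, at 4.71, 5.34, 5.75 and 3.95 FPKM in JX silenced and 8.65, 7.66, 6.04 and 5.29 FPKM in 3798 silenced libraries. These groups overlapped, and the log2 difference of -0.43 (SE 0.152) did not pass (limma adjusted p = 0.56). Gh_D06G216800 and Gh_D01G058900 had similar ratios, at 3.19 ± 0.541 and 2.54 ± 0.740 FPKM in JX silenced libraries and 4.48 ± 0.561 and 3.56 ± 1.29 FPKM in 3798 silenced libraries (SD, n = 4). Neither passed (limma adjusted p = 0.60 and 0.66).

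In 1 of the 50 genes the strain means differed by 2-fold or more, where 0.374% of the 39320 IDs did. Gh_D11G010600, on chromosome D11 and at 0 in every control, was read at 35.8, 2.16, 40.8 and 2.35 FPKM in JX silenced libraries and at 3.87, 4.48, 2.88 and 2.74 FPKM in 3798 silenced libraries. JX silenced 1 and 3 thus stood far above the 6 other silenced libraries, and JX silenced 2 and 4 lay below all 4 of 3798. The mean ratio of 5.80 rests on those high libraries, and the log2 difference of 1.39 (95% interval -0.12 to 2.91) did not pass (limma adjusted p = 0.65). Gh_A09G027500, for comparison, spanned 25.5 to 35.0 FPKM over the same 8 libraries.

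**Figure D2:**
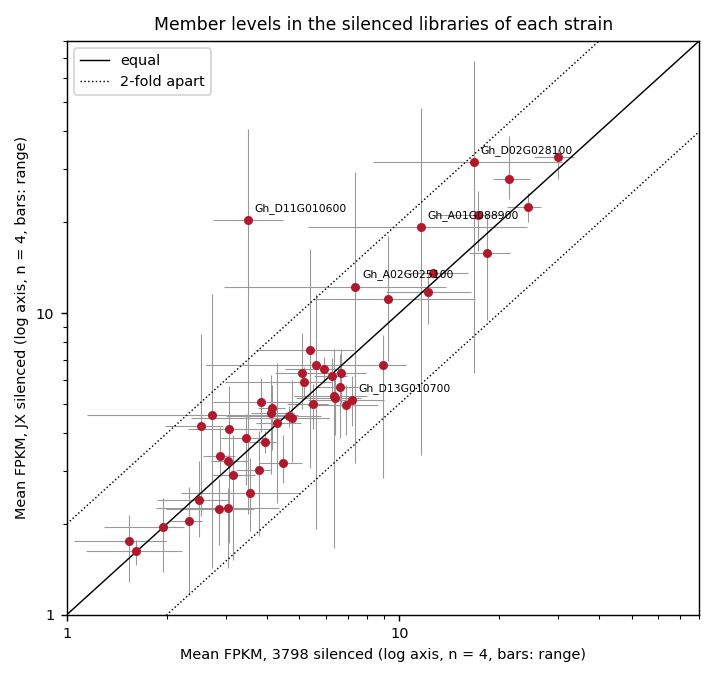
Mean FPKM of each of the 50 genes in JX silenced libraries (vertical, log axis) against 3798 silenced libraries (horizontal, log axis), with bars for the range of the 4 libraries. Points lie along the line of equal levels, and Gh_D11G010600 alone lies outside the 2-fold lines, at a ratio of 5.80.

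Between silenced libraries the coefficient of variation of the 50 genes had a median of 24.0%, against 14.9% for the 39320 annotated IDs on in all silenced libraries, whose median level was higher. The steadiest were Gh_A08G125800, at 8.44%, Gh_A07G082000, at 9.03%, and Gh_D04G069700, at 10.8%. Gh_A07G082000 stood at 3.39, 3.14, 3.09 and 3.28 FPKM in JX silenced and 3.27, 2.75, 2.71 and 3.501 FPKM in 3798 silenced libraries, with 0 listed in every control.

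Gh_D11G010600 had the largest coefficient of variation, 138%, and several of the next most variable genes had a pattern in common. Gh_D02G028100 was at 29.4, 22.5, 68.4 and 6.34 FPKM in JX silenced and 17.6, 9.97, 31.0 and 8.35 FPKM in 3798 silenced libraries. Gh_A01G088900 followed it, at 16.6, 9.41, 47.9 and 3.37 FPKM in JX silenced and 9.30, 5.31, 24.2 and 7.61 FPKM in 3798 silenced libraries. In both genes JX silenced 3 was the highest library, 3798 silenced 3 the highest of its strain and JX silenced 4 the lowest of all.

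Gh_A02G025100, at 2.97 to 29.5 FPKM, Gh_D13G254200, at 1.15 to 11.6 FPKM, and Gh_Contig00133G003200, at 1.73 to 5.74 FPKM, were likewise highest in JX silenced 3. Over the 8 silenced libraries the log2 FPKM of these 4 genes (Gh_A01G088900 included) correlated with that of Gh_D02G028100 at a Pearson r of 0.92 to 0.97, values given as a description, since the points share libraries. The 4 make up 8.16% of the 49 other members, while 0.262% of the other 39319 annotated IDs on in silenced libraries had an r above 0.9 with Gh_D02G028100. Gh_A13G249900 lay just below, at 0.88, with 3.06 to 16.3 FPKM and JX silenced 3 again the highest. It correlated at 0.94 with Gh_D13G254200. Across all 1225 pairs of members the median r was 0.090, and 1.39% of pairs had an r above 0.9. Of all pairs among the annotated IDs on in silenced libraries, 0.403% did. Gh_D02G028100 and the genes compared with it were singled out after their values were seen, so the share of 8.16% is not free of that choice.

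**Figure D3:**
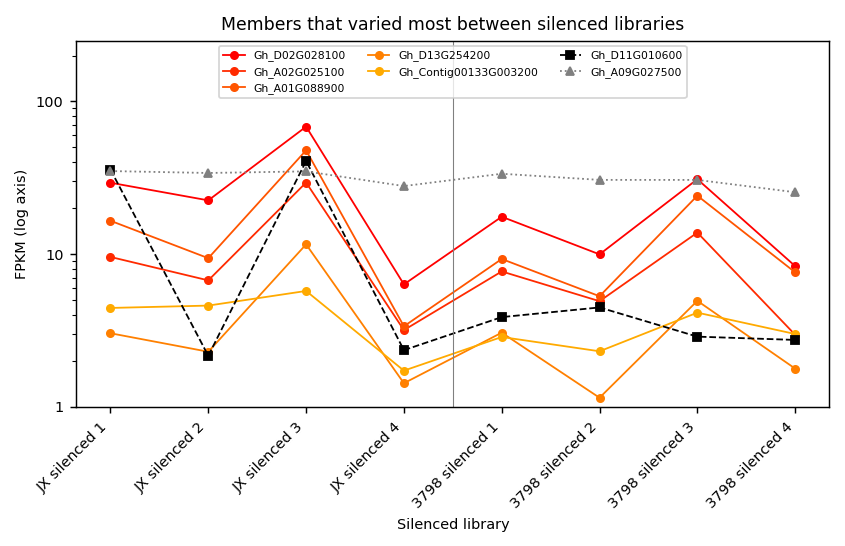
FPKM (log axis) in the 8 silenced libraries, JX left of 3798, for Gh_D02G028100 and the 4 genes that correlate with it above 0.9, for Gh_D11G010600 (dashed) and for the steady Gh_A09G027500 (dotted). The 5 correlated genes peak in JX silenced 3, while Gh_D11G010600 is high in JX silenced 1 and 3 alone.

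JX silenced 4 departed from its group in many of these genes. It was the lowest of the 8 silenced libraries for 42.0% of members (21 genes), against 22.3% of the 39320 annotated IDs on in all silenced libraries. In 13 of 50 genes, or 26.0%, it lay under 0.5 times the mean of JX silenced 1 to 3, where 1.48% of the 39320 IDs did. The same silenced values chose the members, and the 8-fold gap was not asked of the 39320 IDs. These shares are therefore given as a description. In 4 genes JX silenced 4 lay over 1.5 times the mean of JX silenced 1 to 3, where 8% of the IDs did. The median ratio of JX silenced 4 to that mean was 0.798 over the members and 0.999 over the IDs. In 3798 silenced 4 the departure was in the same direction. It lay under 0.5 times the mean of 3798 silenced 1 to 3 in 3 of 50 members, Gh_D02G028100, Gh_A02G025100 and Gh_D06G172800, where 1.38% of the IDs did, and the median ratio was 0.870 over the members and 0.992 over the IDs. The cause of these departures was not tested.

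The genes low in JX silenced 4 included the variable ones above and several that varied less elsewhere. All 4 members on chromosome D01 were lower there than in the other JX silenced libraries. Gh_D01G131700 was at 7.62, 5.82, 6.09 and 1.67 FPKM in JX silenced libraries, against 4.81 to 7.97 FPKM in 3798 silenced libraries. Gh_D01G059000 was at 8.44, 8.44, 7.23 and 2.83 FPKM in JX silenced libraries, against 7.41 to 10.5 FPKM in 3798 silenced libraries. The genes Gh_D01G057900 and Gh_D01G058900 stood at 0.451 and 0.687 times the mean of JX silenced 1 to 3. Opposite to these, Gh_A04G116900 was at 8.51 FPKM in JX silenced 4 and at 1.97 to 3.25 FPKM in the 7 other silenced libraries, and Gh_D11G044200 at 38.6 FPKM, above 19.1 to 24.9 FPKM elsewhere. Gh_A11G350300 was high in library 4 of both strains, at 18.0 FPKM in JX silenced 4 and 16.9 FPKM in 3798 silenced 4, against 5.496 to 10.1 FPKM in the other 6.

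**Figure D4:**
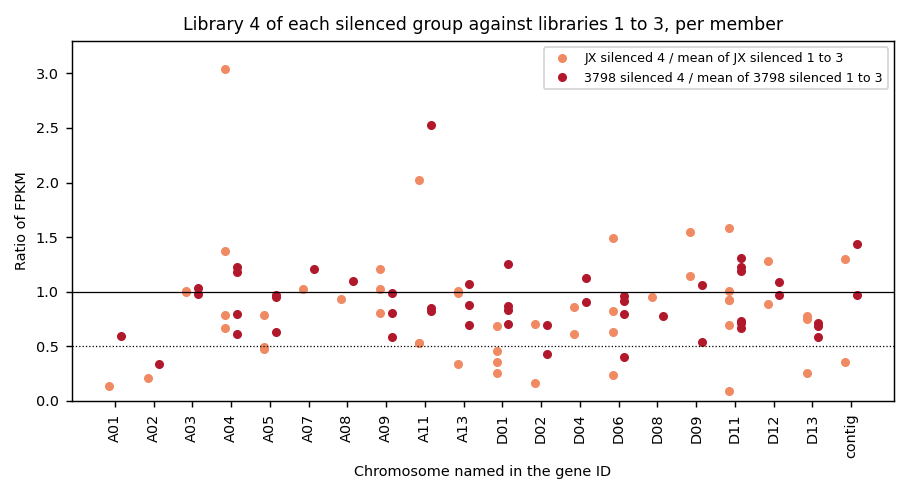
Ratio of FPKM in library 4 of each silenced group to the mean of libraries 1 to 3 of that group, for each of the 50 genes, by the chromosome in the gene ID (1 marked by a line, 0.5 by a dotted line). The 4 genes on D01 lie between 0.256 and 0.687 in JX, and single genes on A04 and A11 reach 3.04 in JX and 2.53 in 3798.

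By their IDs, 22 of the genes lie on A chromosomes (44.0%), 26 on D chromosomes (52.0%) and 2 on contigs. Of all annotated IDs, 48.3% name an A and 49.9% a D chromosome. D11 held the largest number, 6, and A04, D01 and D06 held 4 each. Per 1000 annotated IDs that is 2.91 on A04, 1.93 on D06, 1.90 on D01 and 1.78 on D11, while A06, A10, A12, D03, D05, D07 and D10 held none. Apart from A10 and A12, each of these zeros depends on single libraries. Leaving out JX silenced 4 put 3 genes on D05, and leaving out JX silenced 3, 3798 silenced 3 or JX control 1 put 1 there. D07 gained 2 genes without JX control 1, and D10 gained 2 without JX silenced 3 and 1 without JX control 1. A06 gained 1 without 3798 silenced 4, and D03 gained 1 without 3798 control 2. By the same rule with the labels exchanged, a mirror set of 30 annotated genes was on in controls and low or at 0 in silenced libraries. No gene of that mirror set lay within 10 places of a member in ID order, and the nearest was 17 places from Gh_A07G082000.

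Of the 48 members with a chromosome, 8 lay in 3 runs within 10 places of each other. How many runs 48 IDs placed at random would form was not tested. The runs also depend on single libraries. Without JX silenced 3, Gh_A04G005700 joined the set, 2 places from the member Gh_A04G005900. Between them, Gh_A04G005800 averaged 1.60 and 1.11 FPKM in JX and 3798 silenced libraries, against 0.0235 and 0.0147 FPKM in JX and 3798 controls. Gh_D11G000300, Gh_D11G000400 and Gh_D11G000500 are consecutive near the start of D11. Gh_D11G000300 was at 6.14, 5.22, 6.64 and 5.53 FPKM in JX silenced and 2.99, 5.34, 6.05 and 6.29 FPKM in 3798 silenced libraries. Gh_D11G000400 and Gh_D11G000500 lay at 3.93 to 7.67 and 4.52 to 7.14 FPKM in silenced libraries, and none of the 3 passed 0.126 FPKM in a control. The ID before them, Gh_D11G000200, had the same pattern at a lower level. It is no member, with means of 0.892 ± 0.0966 FPKM in JX silenced and 0.732 ± 0.0624 FPKM in 3798 silenced libraries, 0.00665 ± 0.0133 FPKM in JX controls and 0 listed in all 3798 controls (SD, n = 4). The ID after them, Gh_D11G000600, was similar under both labels, at 0.807 to 1.32 FPKM in silenced and 0.418 to 0.987 FPKM in control libraries.

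On D13, Gh_D13G010700 and Gh_D13G010800 are next to each other. Gh_D13G010700 was at 4.87, 5.30, 6.18 and 4.22 FPKM in JX silenced and 8.99, 8.16, 6.27 and 5.32 FPKM in 3798 silenced libraries, close to the values of Gh_D13G010800 given above (r = 0.99 over 8 libraries). In controls it was listed at 0 in all 4 of 3798 and at 0.363, 0.254, 0.139 and 0 FPKM in JX. Reads shared by overlapping genes were not tested for. The flanking Gh_D13G010600 was expressed under both labels, at 8.23 to 10.5 FPKM in silenced and 8.52 to 10.8 FPKM in control libraries.

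On D01, Gh_D01G057900, Gh_D01G058900 and Gh_D01G059000 span 10 places in ID order. Between them Gh_D01G058800 and Gh_D01G058600 had the same direction at lower levels. Gh_D01G058800 averaged 1.92 and 2.42 FPKM in JX and 3798 silenced libraries, against 0.185 and 0.286 FPKM in JX and 3798 controls. Gh_D01G058600 reached 1.37 FPKM in a silenced library and was listed at 0 in every control. The stretch is not uniform: Gh_D01G058200 averaged 5.65 and 4.99 FPKM in JX and 3798 silenced libraries, against 7.98 and 6.70 FPKM in JX and 3798 controls.

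**Figure D5:**
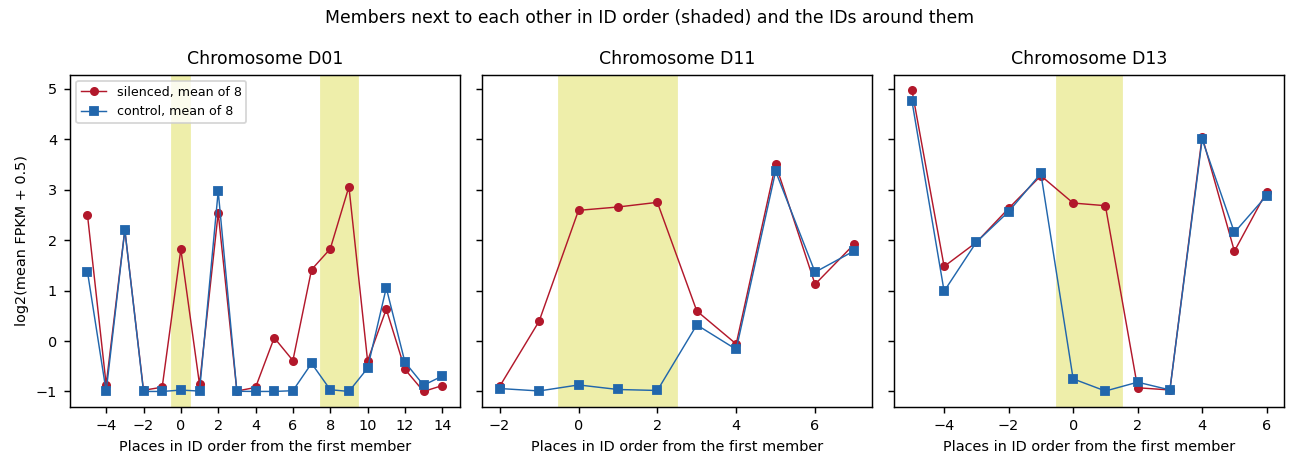
Mean level, as log2(mean FPKM + 0.5), of the 3 runs of members (shaded) and of the IDs up to 5 places around them, by place in ID order, in silenced (circles) and control libraries (squares), 8 of each. On D13 the lines separate most widely at the members, on D11 at the members and at Gh_D11G000200 before them, and on D01 a gene expressed under both labels lies between the members.

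The genes around all members were then examined. Any that met the rule had become a member itself, as in the runs above, so the counts are of the neighbours that did not meet it. Within 5 places of a member lay 434 annotated IDs that are no members, of which 327 were tested with limma. An ID that met the filter for testing through its silenced values alone could only be called higher. Gh_A04G005800 and Gh_A02G025300, each directly beside a member, were such IDs, with no control above 0.0939 FPKM. The higher shares below are therefore not independent of that filter. In JX, 50 of these 327 (15.3%) rose in silenced libraries, against 14.6% of all genes tested, and 45 (13.8%) fell, against 13.7%. In 3798, 31 of 327 (9.48%) rose, against 7.51% of all genes, and 11 (3.36%) fell, against 5.28%. In JX these shares are near those of all genes, and in 3798 the differences from them were not tested. Without 3798 control 3, 3798 silenced 4 and JX silenced 4 the shares in 3798 were 12.8% higher and 7.65% lower, against 9.78% and 6.97% of all genes. Directly beside a member the higher share was 20.0% in JX (14 of 70 IDs tested), against 14.6% of all genes. In 3798 it was 15.7% (11 of 70), against 7.51%. These counts include IDs beside the runs above. The lower share there was 15.7% in JX and 4.29% in 3798, against 13.7% and 5.28% of all genes.

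The same 3 neighbours had the smallest p in both strains. Gh_D12G129600, which follows the member Gh_D12G129400 in ID order, averaged 13.4 ± 1.83 FPKM in JX silenced libraries against 1.43 ± 0.185 FPKM in JX controls, and 14.9 ± 1.17 FPKM in 3798 silenced libraries against 1.17 ± 0.440 FPKM in 3798 controls (SD, n = 4). Its log2 change was 2.84 in JX and 3.24 in 3798 (SE 0.150, limma adjusted p = 2.1e-09 and 3.8e-10). Gh_D12G129400 itself stood at 3.502 to 5.78 FPKM in silenced libraries, and was listed at 0 in every control apart from JX control 1, with 0.0471 FPKM.

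Gh_A08G125600, 2 places from Gh_A08G125800, was far more abundant than any member. It averaged 133 ± 27.7 FPKM in JX silenced libraries against 25.8 ± 2.37 FPKM in JX controls, and 186 ± 36.1 FPKM in 3798 silenced libraries against 42.0 ± 6.82 FPKM in 3798 controls (SD, n = 4). The groups did not overlap in either strain, and the log2 change was 2.33 in JX and 2.13 in 3798 (SE 0.163, limma adjusted p = 7.6e-08 and 2.1e-07). The third was Gh_D11G000200, described with the run on D11, with log2 changes of 1.46 in JX and 1.30 in 3798 (SE 0.124, limma adjusted p = 8.6e-07 and 3.5e-06). No control of this ID passed 0.0266 FPKM, so it met the filter for testing through its silenced values alone. Its p is therefore not independent of that filter. At this low level the size depends on the pseudocount: the log2 change was 3.22 in JX and 3.05 in 3798 with a pseudocount of 0.1, and 0.91 in JX and 0.79 in 3798 with a pseudocount of 1.

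The 30 genes of the mirror set summed to 3.17 to 4.49 FPKM per silenced library, against 206 to 304 FPKM per control library. Among 8125 unannotated newGene loci, 45 met the rule for silenced libraries and 32 the mirrored rule.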

How the data were processed

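The authors deposited 1 table of FPKM values for 70422 gene IDs in 16 libraries, the unit being that of the deposited table's name. With the aligner, counter, build, annotation and strand setting not given in the sources used here, fragments of near-identical subgenome copies or overlapping genes could have been split, dropped or joined. Columns were matched to samples by the code in each sample's description, and 0 library pairs held identical values.

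The 50 genes, the lists and the alternatives were chosen with earlier results of these data known. From FPKM, genes at 0.5 or more in at least 4 libraries (55040) were tested on log2(FPKM + 0.5), which understates changes of low genes, with limma 3.58.1 in R 4.3.3: 1 mean per group over all 16 libraries, variance trend, robust estimation, two-sided tests, Benjamini-Hochberg adjustment over all genes, threshold 0.05. The procedure was tested on simulated data first. Correlations are Pearson's r of log2 FPKM. Places count annotated IDs in ID order along a chromosome.

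Members were named by rule: highest, lowest, steadiest and most variable levels, largest strain ratios, highest control values, smallest gaps and nearness to another member. Others, including those picked for JX silenced 4, were named after their values were seen. Alternatives were pseudocounts, filters, scalings, a replicate term, library weights, windows, rule thresholds and each library left out. Python 3.11.15, numpy 2.4.6, pandas 2.3.3 and matplotlib 3.10.9 were used.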

Additional observations from a re-analysis of the deposited data

Results flagged for a closer look

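Among 132 groups of 4 values checked for the members and their library sums, 8 (6.06%) had a library far from the other 3. In independent groups of normally distributed values about 5% would be flagged. The groups here share libraries, and the rule chose the silenced values, so nothing is read from the share. Control groups with any value listed at 0 were left out for single genes, because a lone value above 0 would always stand apart.

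In JX silenced libraries, JX silenced 4 was low for Gh_A09G027500, at 27.9 FPKM with the next at 34.0, and high for Gh_D11G044200, at 38.6 with the next at 24.9. JX silenced 3 was low for Gh_D09G066100, at 1.43 FPKM with the next at 2.47, and high for Gh_D13G254200, at 11.6 with the next at 3.04. In controls, Gh_A11G195200 was at 0.140 FPKM in 3798 control 3 with the next at 0.0268, and Gh_D11G000400 at 0.0361 FPKM in JX control 4 with the next at 0.0093. JX control 1 had 26 members above 0, with the next JX control at 20, and a median member level of 0.0126 FPKM where the other JX controls had 0. That median had to stand apart for the same reason as a lone value above 0.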

How the results depend on the processing

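Absolute depth is unknown, and 4 libraries per group limit the precision. Members called between the silenced strains numbered 0 under all alternatives run. Over all genes that comparison gave 4 calls with no filter on low values, 3 with library weights and 0 to 4 with 1 library left out: 4 without JX silenced 1, 3 without JX silenced 4 or 3798 silenced 4, and 1 without JX silenced 3 or JX control 4. Neighbouring IDs called in 3798 numbered 42, and 33 to 59 with 1 library left out, 69 with library weights and 67 without the 3 libraries that stood apart, a setting added after the data were seen. In JX they numbered 95, and 66 to 114 with 1 library left out, 133 with library weights and 131 without those 3 libraries. Windows of 1 and 10 places gave 14 and 105 in 3798 and 25 and 198 in JX, since they hold fewer or more IDs. The number of members was 50 to 59 with 1 library left out, which under this rule can add members but cannot remove any. It was 79 with a gap of 4-fold, 64 and 35 with minimums of 0.5 and 2 FPKM, and 69 without JX silenced 4 and JX control 1 together, also added later. The median log2 strain ratio of members was -0.042 to 0.075 with 1 library left out. Across the 24 pairs of equal-numbered libraries, 5 had deviations correlated above 0.1 and 4 below -0.1 (from -0.37 to 0.36). The numbers were therefore not taken to pair samples. Between JX silenced and 3798 silenced the equal-numbered r was 0.090, 0.046, 0.25 and 0.36 for libraries 1 to 4. JX silenced 4 and 3798 control 3, of different number, reached 0.44. With the replicate block, 43 neighbouring IDs were called in 3798 and 93 in JX. The log2 changes of the named neighbours kept their direction and their call in the alternatives in which they were fitted, and the filter on a mean of at least 1 FPKM dropped Gh_D11G000200.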
